A study of Homo sapiens with 4 samples.

Results

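The ERBB receptors, their ligands and the inhibitors that ERK signaling switches on against itself were examined in Huh7 cells with and without METTL16 depletion. The 10 genes were taken by symbol from the deposited table of 18806 genes by their place in the pathway, and all 10 were found. They were the receptors EGFR, ERBB2 and ERBB3, the ligands AREG, EREG, TGFA and HBEGF, and the feedback inhibitors DUSP6, SPRY2 and SPRY4. These genes and the lists used below were chosen with earlier results of these data known, so that their counts are a description. Huh7 is an established human hepatoma cell line. A single Huh7 clone that stably expressed Cas9 was infected with lentivirus carrying a non-targeting guide (sgNS) or a METTL16 guide (sgMETTL16, here METTL16 KO), and both groups were kept under hygromycin B to obtain stable lines. Each group has 2 RNA-seq libraries, and the sample labels give the genotypes as WT and METTL16 knockdown. All 4 libraries therefore share the Cas9 clone, the guide vector and the drug, and how many METTL16 guides were used is not given in the sources used here, so that an effect of a guide itself and loss of METTL16 are not separable. Neither the labels nor the methods say whether the replicates came from separate infections, so the p-values measure the spread between these libraries.

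ERBB receptors are tyrosine kinases that pair up when an EGF-family ligand binds. EGFR binds ligands and has a kinase of its own, ERBB2 has no known ligand and serves as a partner, and ERBB3 binds neuregulins but has little kinase activity and signals through its partners. Active receptors switch on RAS, RAF, MEK and ERK as well as PI3K. ERK in turn induces genes that restrain the pathway, among them DUSP6, a phosphatase that removes phosphate from ERK, and the Sprouty proteins, which act on the steps between receptor and RAF. Hepatocytes carry EGFR and ERBB3, and EGFR ligands act as growth signals for them during liver regeneration.

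Levels are given as TPM (each library sums to 1000000 transcripts), which are set per length of transcript and can be compared between genes. No read totals can be taken from TPM, so depth is unknown and counting error was not estimated. METTL16 was at 26.3 and 25.1 TPM in the sgNS libraries against 17.6 and 18.8 TPM in those of METTL16 KO, a difference of -0.50 on the log2 scale (standard error 0.062, adjusted p = 2.4e-05 in limma). All 10 hepatocyte and hepatoma markers of a fixed list were abundant in every library, from 160 TPM for HNF4A to 10387 TPM for AFP. They moved with the groups, with 8 of 10 higher and 2 lower in METTL16 KO (7 and 2 after median-ratio scaling, a scale explained with the tests) and a summed level of 18670 and 18750 TPM in sgNS against 32420 and 31970 TPM in METTL16 KO. The defining markers of other cell types (PTPRC and CD3E for immune cells, VWF, CDH5 and KDR for endothelium, and COL1A1 and DCN for fibroblasts) were at 0.80 TPM or less in every library. Of the other genes on those lists, the lysozyme gene LYZ was high in all libraries and lower in METTL16 KO (1510 and 1553 TPM against 909 and 924 TPM), PECAM1 was at 5.14 and 4.74 TPM against 3.09 and 2.70 TPM, and CD14, COL1A2, LUM and PDGFRB were under 2 TPM. The summed immune list, nearly all LYZ, ran from 912 to 1555 TPM, the endothelial list from 2.73 to 5.15 TPM and the fibroblast list from 2.69 to 3.59 TPM. Whether these shifts bear on the ERBB genes was not tested, and in bulk RNA fewer cells of a kind and less RNA per cell cannot be told apart.

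Of the 10 genes, 8 had a mean of at least 1 TPM over the 4 libraries and were tested among 11971 genes with limma on log2(TPM + 0.1). At an adjusted p under 0.05, ERBB2, ERBB3, DUSP6 and SPRY2 (4 of 8) were lower in METTL16 KO, where 25.6% of all genes tested were lower. EGFR, AREG, HBEGF and SPRY4 (4 of 8) were higher, where 50.1% of all genes were, so that the share of higher genes was that of the background. With an unadjusted p under 0.01 and a fold of at least 2, EGFR alone was called among the 8, against 7.69% of all genes higher, and 0 of the 8 were lower, against 3.75% of all genes. The 4 lower genes all passed the p of that rule in limma and missed its fold. The groups did not overlap in any of the 10 genes, which was also so for 87.4% of all genes tested. The median log2 fold change over the 8 genes was -0.24, and over all genes tested 0.16, so that a gene with no change relative to the median gene appears as slightly higher.
A second scale, median-ratio scaling, removes that shift: the TPM of each library are divided by their median ratio to the mean library on a log scale. On it the 4 lower genes were again lower, where 36.5% of all genes were, and EGFR was the single gene called higher, where 36.4% of all genes were. The call at 2-fold was lost by EGFR on this scale (log2 fold change 0.86) and gained by ERBB2 (-1.10), which gave 0 of 8 higher, against 5.60% of all genes, and 1 of 8 lower, against 5.47%.

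**Figure D1:**
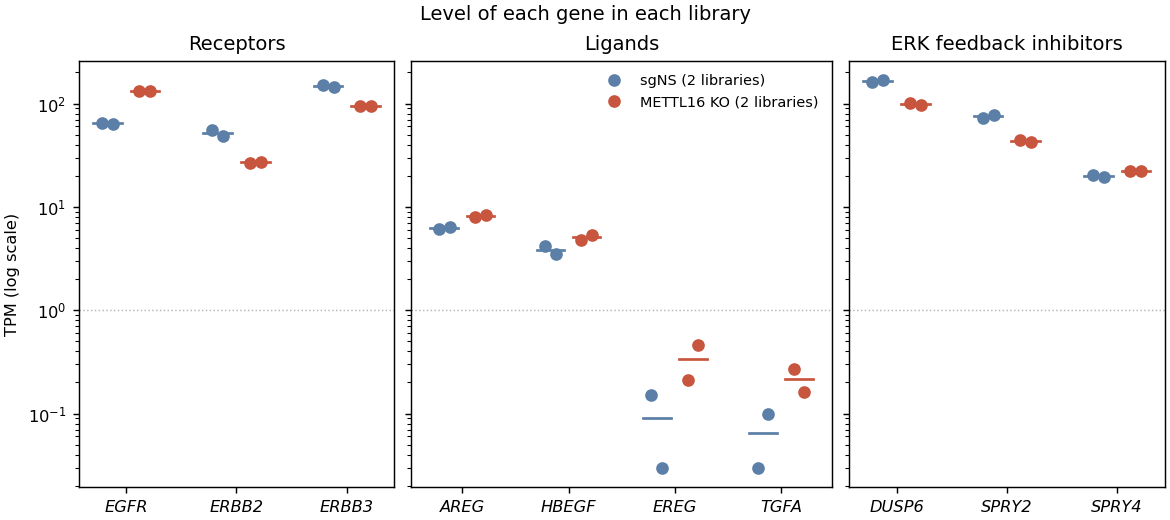
TPM of each of the 10 genes on a log axis, by role; each point is 1 library (blue, sgNS; red, METTL16 KO), each bar the mean of 2 libraries, and the dotted line marks 1 TPM. EGFR lies higher in METTL16 KO while ERBB2, ERBB3, DUSP6 and SPRY2 lie lower, and EREG and TGFA stay under 0.5 TPM in all libraries.

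Among the receptors, EGFR rose while ERBB2 and ERBB3 fell. On GRCh38 the genes lie on the plus strand, EGFR at chr7:55019017-55211628, ERBB2 at chr17:39687914-39730426 and ERBB3 at chr12:56076799-56103505. EGFR was at 65.4 and 64.0 TPM in the sgNS libraries against 131.4 and 131.2 TPM in those of METTL16 KO. Both METTL16 KO libraries were thus near 2 times the level of the sgNS libraries, with little spread within either group. The means were 64.7 ± 0.98 TPM and 131.3 ± 0.17 TPM (SD, n = 2 per group), with a log2 fold change of 1.02 (95% interval 0.93 to 1.11, adjusted p = 2.8e-09 in limma). Among all genes tested, 7.4% had a larger log2 fold change. The antisense RNA gene EGFR-AS1 overlaps exons of EGFR on the opposite strand.
ERBB2 was at 55.0 and 48.6 TPM in the sgNS libraries against 26.8 and 27.2 TPM in those of METTL16 KO. The sgNS libraries differed by more than the METTL16 KO libraries, and the gap between the groups was wider than either spread. Its log2 fold change was -0.94 (95% interval -1.08 to -0.80, adjusted p = 1.9e-07 in limma), and 4.3% of all genes tested lay below it. Exons of ERBB2 overlap those of PGAP3 and MIEN1 on the opposite strand. PGAP3 had a log2 fold change of -0.95 (adjusted p = 5.5e-05 in limma) and MIEN1 of -0.08 (adjusted p = 0.17 in limma). The library kit named in the protocol keeps strand and selects mRNA, while the sample description reads Ribozero RNA, and whether the counting used it is not given in the sources used here, so the part of shared reads was not tested.
ERBB3 was at 150.9 and 143.8 TPM in the sgNS libraries against 94.7 and 93.7 TPM in those of METTL16 KO. It fell by 0.64 on the log2 scale (standard error 0.040, adjusted p = 1.0e-07 in limma). The gene shares exons with an unnamed gene on its own strand. The remaining receptor, ERBB4, was under 0.4 TPM in all 4 libraries and was not tested.

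The changes altered which receptor transcript was the most abundant. In sgNS the order was ERBB3, EGFR and ERBB2, and in METTL16 KO it was EGFR, ERBB3 and ERBB2, with no overlap between neighbours in either order. EGFR made up 24.1% and 24.9% of the summed TPM of the 4 receptors in sgNS and 51.9% and 52.0% in METTL16 KO. The share of ERBB3 went from 55.6% and 56.0% to 37.4% and 37.2%, and that of ERBB2 from 20.3% and 18.9% to 10.6% and 10.8%. The summed level itself was 272 and 257 TPM in sgNS and 253 and 252 TPM in METTL16 KO, a difference of -11.6 TPM between the means that was near the SD of 10.5 TPM in sgNS.
Ratios within a library do not depend on a factor that scales the whole library. The ratio of ERBB3 to EGFR was 2.31 and 2.25 in sgNS and 0.72 and 0.71 in METTL16 KO, and that of ERBB2 to EGFR was 0.84 and 0.76 against 0.20 and 0.21. The ratio of ERBB3 to ERBB2 moved less, from 2.74 and 2.96 to 3.54 and 3.45. The ratios are given as a description, with no test.

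**Figure D2:**
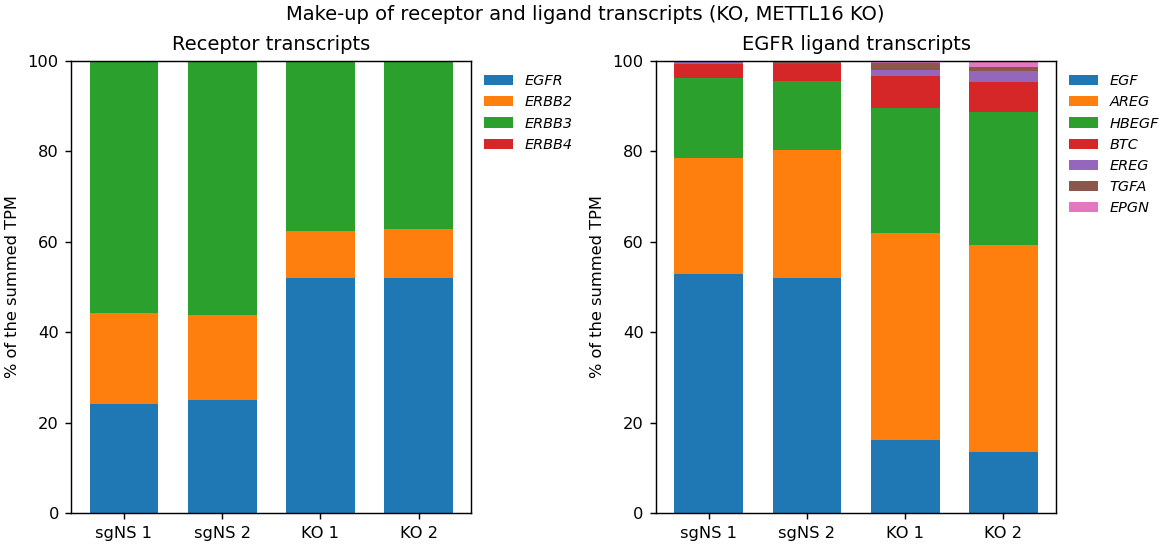
Share of each gene in the summed TPM of the 4 ERBB receptors (left) and of 7 ligands of EGFR (right), in % per library, with 1 bar for each of the 2 sgNS and the 2 METTL16 KO libraries. EGFR goes from 24.1% and 24.9% of the receptor transcripts to 51.9% and 52.0%, and EGF from the largest part of the ligand transcripts to the third place behind AREG and HBEGF.

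The ligand transcripts were scarce beside those of the receptors. AREG and EREG are neighbours on the plus strand, at chr4:74445136-74455005 and chr4:74365145-74388749, and TGFA at chr2:70447284-70554193 and HBEGF at chr5:140332843-140346603 lie on the minus strand of GRCh38. The 4 ligands examined together reached 10.5 and 10.1 TPM in sgNS and 13.2 and 14.4 TPM in METTL16 KO. AREG encodes amphiregulin, a ligand of EGFR that is released from the cell surface by the protease ADAM17. It was at 6.15 and 6.44 TPM in the sgNS libraries against 7.93 and 8.37 TPM in those of METTL16 KO, so that the groups were apart by more than the spread within them. The log2 fold change was 0.37 (95% interval 0.17 to 0.57, adjusted p = 0.0031 in limma), and with median-ratio scaling 0.20 (adjusted p = 0.059 in limma).
HBEGF encodes heparin-binding EGF-like growth factor, which binds EGFR and ERBB4. It was at 4.18 and 3.48 TPM in the sgNS libraries against 4.79 and 5.40 TPM in those of METTL16 KO, and its groups were separated by less than the gap between its sgNS libraries. Its log2 fold change was 0.41 (95% interval 0.12 to 0.69, adjusted p = 0.013 in limma). The value was 0.24 on the median-ratio scale (adjusted p = 0.11 in limma), and without the second sgNS library it was 0.28 (adjusted p = 0.098 in limma), and without the second METTL16 KO library 0.32 (adjusted p = 0.12 in limma).
EREG (epiregulin) and TGFA (transforming growth factor alpha) were near the lowest values the table can show. EREG was at 0.15 and 0.03 TPM in the sgNS libraries against 0.21 and 0.46 TPM in those of METTL16 KO. TGFA was at 0.03 and 0.10 TPM in the sgNS libraries against 0.27 and 0.16 TPM in those of METTL16 KO. Both METTL16 KO values lay above both sgNS values in each gene, but the levels are too low for a fold change to be read, and neither gene was in the fit. When all genes above 0 in at least 1 library were fitted, the adjusted p in limma was 0.082 for EREG and 0.065 for TGFA.

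The promoter of AREG is shown because AREG is the more abundant of the 4 ligands and 1 of 6 genes of the 10 for which the RefSeq start site is the 5′ end of the GENCODE gene. It spans the 250 bases before the start, at chr4:74444886-74445135 on the plus strand of GRCh38.p14. Capitals mark CGGAA, a sequence found in sites of ETS factors, and TGACG, the core of the cAMP response element, on either strand. Other forms of ETS sites were not searched.
AREG: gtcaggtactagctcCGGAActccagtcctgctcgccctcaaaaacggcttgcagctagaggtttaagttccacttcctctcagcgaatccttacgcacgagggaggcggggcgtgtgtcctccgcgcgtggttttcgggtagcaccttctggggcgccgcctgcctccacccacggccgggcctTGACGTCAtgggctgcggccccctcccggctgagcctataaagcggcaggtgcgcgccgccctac
The TGACG matches on the 2 strands overlap in the palindrome TGACGTCA, and 1 TATAAA lies further downstream. TGACG on either strand is found in 21.2% of 34788 RefSeq promoter windows of the same length, CGGAA in 30.3% and TATAAA in 10.8%. Such a match describes the letters and is not evidence of binding.

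The other EGF-family ligands were read from a fixed list of 7 genes, of which 2 were abundant enough to be tested. EGF, the ligand that gives the family its name, was at 12.6 and 11.8 TPM in the sgNS libraries against 2.77 and 2.49 TPM in those of METTL16 KO. It fell by 2.17 on the log2 scale (standard error 0.10, adjusted p = 1.5e-08 in limma), the largest fall among the genes of the pathway lists. NRG3, a neuregulin that binds ERBB4, rose from 0.96 and 0.70 TPM to 1.53 and 2.15 TPM, with a log2 fold change of 1.06 (adjusted p = 0.0025 in limma). NRG1, a ligand of ERBB3, was between 0.28 and 0.42 TPM in all libraries.
The fall of EGF outweighed the rises of AREG and HBEGF in the summed level of the 7 ligands of EGFR, which was 23.9 and 22.7 TPM in sgNS and 17.3 and 18.3 TPM in METTL16 KO. EGF took 52.9% and 51.9% of that sum in sgNS and 16.0% and 13.6% in METTL16 KO. AREG took 25.8% and 28.4% in sgNS and 45.9% and 45.7% in METTL16 KO, and HBEGF 17.5% and 15.3% against 27.7% and 29.5%. The ratio of HBEGF to AREG was 0.68 and 0.54 in sgNS and 0.60 and 0.65 in METTL16 KO, with overlapping groups.

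Among the feedback inhibitors, DUSP6 and SPRY2 fell by similar amounts and SPRY4 did not fall. All 3 lie on the minus strand of GRCh38, DUSP6 at chr12:89347235-89352501, SPRY2 at chr13:80335976-80341126 and SPRY4 at chr5:142310427-142326455. DUSP6 was at 160.6 and 167.4 TPM in the sgNS libraries against 100.6 and 97.2 TPM in those of METTL16 KO, which made it the most abundant of the 10 genes in sgNS. Its means were 164 ± 4.8 TPM and 98.9 ± 2.4 TPM (SD, n = 2 per group), and it fell by 0.73 on the log2 scale (standard error 0.040, adjusted p = 4.1e-08 in limma). An unnamed long non-coding RNA gene overlaps its exons on the opposite strand.
SPRY2 was at 73.1 and 76.8 TPM in the sgNS libraries against 44.6 and 42.6 TPM in those of METTL16 KO. SPRY2 fell by 0.78 on the log2 scale (standard error 0.048, adjusted p = 1.0e-07 in limma), and 6.2% of all genes tested lay below it, against 7.1% for DUSP6. The ratio of DUSP6 to SPRY2 moved little, at 2.20 and 2.18 in sgNS and 2.26 and 2.28 in METTL16 KO.
SPRY4 was at 20.2 and 19.6 TPM in the sgNS libraries and at 22.2 TPM in both METTL16 KO libraries. Its log2 fold change of 0.16 (95% interval 0.03 to 0.28, adjusted p = 0.030 in limma) lay in the middle of all genes tested, 49.4% of which were below it. After median-ratio scaling it was -0.01 (adjusted p = 0.895 in limma), and without the second sgNS library or either METTL16 KO library the adjusted p was 0.081 to 0.125. The ratio of SPRY2 to SPRY4 was 3.62 and 3.91 in sgNS but 2.01 and 1.92 in METTL16 KO, and that of DUSP6 to SPRY4 from 7.95 and 8.52 to 4.53 and 4.38.

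**Figure D3:**
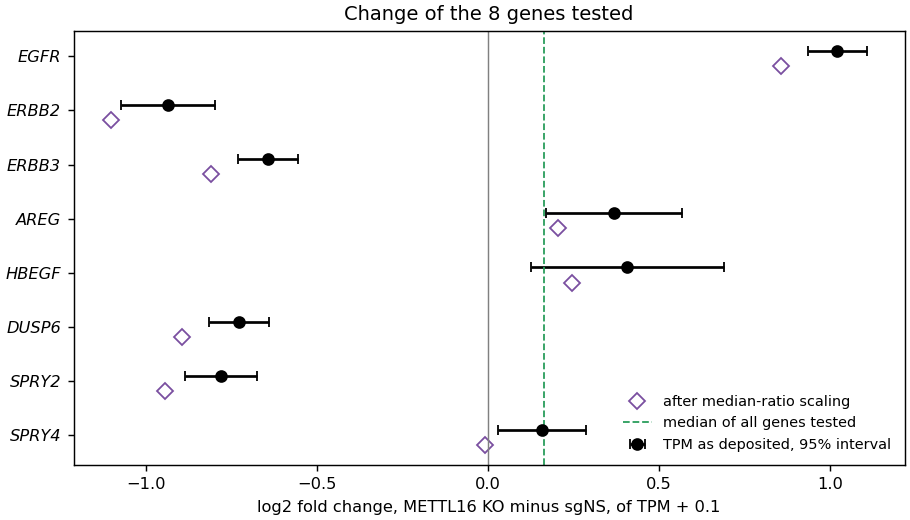
Log2 fold change (METTL16 KO minus sgNS, of TPM + 0.1) of the 8 genes tested; black points are the TPM as deposited with 95% intervals from limma, violet diamonds the values after median-ratio scaling, and the green line the median of all genes tested, 0.16. ERBB2, ERBB3, DUSP6 and SPRY2 lie left of 0 on both scales, EGFR lies right of it, and SPRY4 sits on the median line.

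The promoters of DUSP6 and SPRY2 are shown as those of the pair that fell together, and that of EGFR as the gene that rose. Each is the 250 bases before the start, 5′ to 3′ along the gene, from RefSeq on GRCh38.p14. DUSP6 lies at chr12:89352502-89352751 and SPRY2 at chr13:80341127-80341376, both on the minus strand, and EGFR at chr7:55018767-55019016 on the plus strand. Capitals mark CGGAA and TGACG on either strand.
DUSP6: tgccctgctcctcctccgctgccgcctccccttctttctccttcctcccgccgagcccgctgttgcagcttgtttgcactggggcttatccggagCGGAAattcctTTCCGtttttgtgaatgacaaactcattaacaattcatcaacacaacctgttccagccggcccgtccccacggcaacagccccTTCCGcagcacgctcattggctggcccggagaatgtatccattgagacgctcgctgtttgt
SPRY2: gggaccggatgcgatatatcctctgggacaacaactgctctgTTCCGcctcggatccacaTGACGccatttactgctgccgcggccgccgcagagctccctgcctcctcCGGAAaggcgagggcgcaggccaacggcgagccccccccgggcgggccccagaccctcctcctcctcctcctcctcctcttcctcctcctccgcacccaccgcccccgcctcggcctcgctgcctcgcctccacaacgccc
EGFR: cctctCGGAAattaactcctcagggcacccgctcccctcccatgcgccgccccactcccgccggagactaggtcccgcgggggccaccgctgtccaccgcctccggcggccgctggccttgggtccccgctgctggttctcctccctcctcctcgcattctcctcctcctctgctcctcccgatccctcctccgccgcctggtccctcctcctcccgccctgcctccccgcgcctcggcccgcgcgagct
CGGAA was found 3 times before DUSP6, 2 times before SPRY2 and 1 time before EGFR, and also before AREG, EREG and HBEGF. All 6 windows read held it, as do 30.3% of the promoter windows. Nothing particular to these genes is read from that count. TGACG was found 1 time before SPRY2 and not in the windows of DUSP6 and EGFR. GGGCGG, the GC box, had 2 matches each before EGFR and SPRY2 and none before DUSP6, where 42.6% of the promoter windows hold it. CCAAT was found 1 time before DUSP6, with a share of 32.0% among the windows. The GC content was 73.6% before EGFR, 70.4% before SPRY2 and 57.2% before DUSP6, against a median of 58.0% over the promoter windows.

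**Figure D4:**
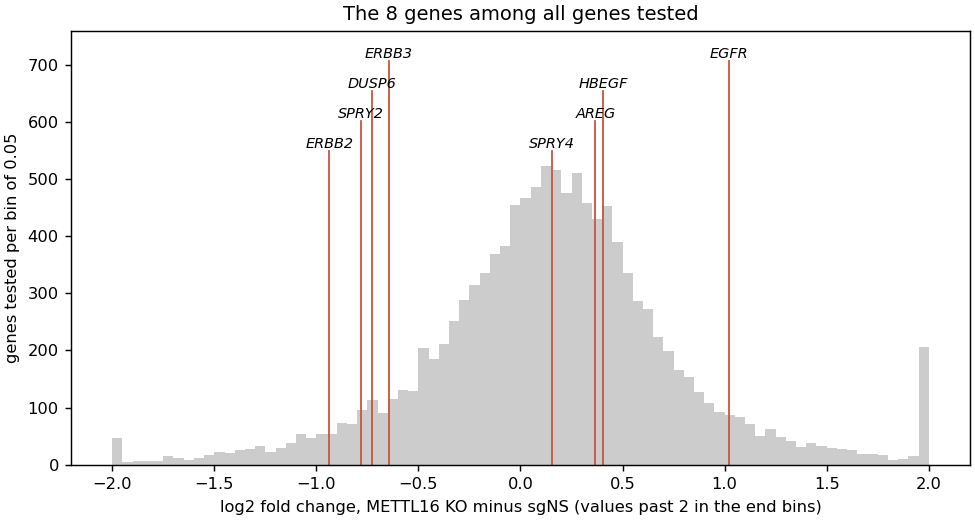
Number of genes tested per bin of 0.05 of the log2 fold change (METTL16 KO minus sgNS), with values past 2 gathered in the end bins; red lines mark the 8 genes. EGFR has 7.4% of all genes to its right, ERBB2, SPRY2, DUSP6 and ERBB3 have 4.3% to 8.5% to their left, and SPRY4, AREG and HBEGF stand among the bulk of genes.

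The other genes of the pathway were read from fixed lists, whose counts stand beside 25.6% of all genes lower and 50.1% higher, and after median-ratio scaling 36.5% and 36.4%. Most lists are short, and nothing particular to a list is read from its counts. A list of 20 other inhibitors of the pathway or of related kinases was read, not all of which ERK induces. Of these, 16 were tested, and 6 were lower, 6 were higher and 4 were not called. The median log2 fold change was 0.15 beside 0.16 for all genes tested, and after median-ratio scaling 7 were lower and 6 higher. SPRED1, which brings neurofibromin to RAS, fell from 8.37 and 8.91 TPM to 3.22 and 3.27 TPM (log2 fold change -1.39, adjusted p = 3.9e-07 in limma). SPRY1, another Sprouty gene, was at 67.6 and 67.5 TPM in the sgNS libraries against 28.3 and 32.0 TPM in those of METTL16 KO. It fell by 1.16 on the log2 scale (adjusted p = 2.7e-08 in limma), and NF1 itself fell by 0.23 (adjusted p = 0.0021 in limma).
The 6 rises included DUSP1 and, named after their values were seen, DUSP4, DUSP9 and DUSP10 at log2 fold changes of 0.60, 0.60 and 0.59. All 4 are phosphatases of the family of DUSP6, and 50.1% of all genes tested were higher. The family did not move as 1: DUSP5 and DUSP7 were called lower, with log2 fold changes of -0.15 and -0.22, and DUSP8 and DUSP16 were not called. DUSP1, a nuclear phosphatase that acts on p38 and JNK as well as ERK, was at 105.1 and 102.0 TPM in the sgNS libraries against 219.1 and 217.8 TPM in those of METTL16 KO, a log2 fold change of 1.08 (adjusted p = 9.8e-10 in limma). The ratio of DUSP6 to DUSP1 thus went from 1.53 and 1.64 to 0.46 and 0.45. PEA15, which holds ERK in the cytoplasm, had a log2 fold change of 0.98 and PEBP1 of 0.81, with adjusted p-values in limma of 3.4e-08 and 3.1e-09.

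A list of 21 transcripts linked to ERK activity was read, not all of which, as ELK1 and ELK3, are known to be induced by it. Of these, 18 were tested, with 8 lower, 9 higher and 1 not called. The median log2 fold change was -0.04, and after median-ratio scaling 9 were lower and 7 higher. The ETS factors ETV4 and ETV5 were lower, ETV4 at 176.2 and 174.5 TPM in sgNS against 87.4 and 84.6 TPM in METTL16 KO and ETV5 at 88.9 and 85.8 TPM against 49.2 and 50.4 TPM. They fell by 1.03 and 0.81 on the log2 scale, and the early growth response gene EGR1 fell by 0.96, all with adjusted p-values of 4.5e-08 or less in limma. The largest rises were in the cytokine gene LIF, from 3.94 and 3.10 TPM to 26.6 and 26.3 TPM, and in PHLDA1 and PHLDA2, with log2 fold changes of 2.04 and 1.94. The adjusted p-values of these 3 genes in limma were 2.2e-08 or less. The rest of the called genes are named after their values were seen. FOS, MYC, MCL1, VEGFA, EPHA2 and ELK1 were also higher, with log2 fold changes of 0.64, 0.72, 0.67, 0.36, 0.26 and 0.18. IER3, ETV1, ELK3, IER2 and CCND1 were also lower, with log2 fold changes of -0.74, -0.34, -0.30, -0.27 and -0.25.

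Of 12 genes tested that act on the receptors themselves, 3 were lower, 7 higher and 2 not called, with a median of 0.19, and after median-ratio scaling 4 were lower and 5 higher. LRIG1, a membrane protein that restrains ERBB receptors, fell by 0.91 (adjusted p = 9.0e-07 in limma). The ubiquitin ligases STUB1 and RNF41, of which RNF41 acts on ERBB3, fell by 0.29 and 0.23. The largest of the 7 rises were in LRIG2, with a log2 fold change of 0.88, in USP8, a deubiquitinase of endocytosed receptors, with 0.73, and in SOCS4 with 0.66. The other 4 genes called higher had log2 fold changes from 0.19 to 0.58 and, named after their values were seen, were PTPN1, ERRFI1, LRIG3 and CBL.
Of 6 ligand-shedding genes tested, 2 were lower and 3 higher, also after median-ratio scaling. ADAM10 and ADAM17, the main sheddases of EGFR ligands, had log2 fold changes of 0.61 and 0.44, and FRMD8, a cofactor of ADAM17, had 0.85. RHBDF2, a cofactor of ADAM17 as well, fell by 0.98 and ADAM9 fell by 0.49.

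Within the cascade from RAS to ERK, 5 of 14 genes tested were lower, 4 higher and 5 not called, with a median log2 fold change of 0.01, and after median-ratio scaling 8 were lower and 3 higher. BRAF was at 37.0 and 37.8 TPM in the sgNS libraries against 78.1 and 78.9 TPM in those of METTL16 KO, a log2 fold change of 1.07 (adjusted p = 5.1e-09 in limma). The genes of the kinases below it were lower: MAP2K1 (MEK1) fell by 0.57 and MAPK3 (ERK1) fell by 0.67, from 96.0 and 94.5 TPM to 59.9 and 60.1 TPM. ARAF fell by 0.46, while HRAS had a log2 fold change of 0.52 and the scaffold gene SHOC2 of 0.36, all with adjusted p-values under 0.05 in limma.
Among the adaptors and RAS exchange factors, 1 of 7 tested was lower and 5 were higher (2 and 3 after median-ratio scaling). GAB2 fell by 0.39, and SOS1, SOS2 and the phosphatase gene PTPN11 had log2 fold changes of 0.61, 0.47 and 0.28. In the PI3K and AKT branch, 1 of 12 was lower, 7 were higher and 4 were not called, with a median of 0.24, and after median-ratio scaling 3 were lower and 5 higher. PIK3R1 and PIK3R2, which encode regulatory subunits of PI3K, moved apart: PIK3R1 went from 22.2 and 23.1 TPM to 50.7 and 49.8 TPM (log2 fold change 1.15), and PIK3R2 from 127.2 and 113.1 TPM to 66.6 and 65.8 TPM (log2 fold change -0.86), with adjusted p-values of 8.9e-09 and 1.2e-07 in limma. PIK3CD and PDPK1 were the next largest rises, at 0.66 and 0.54.

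**Figure D5:**
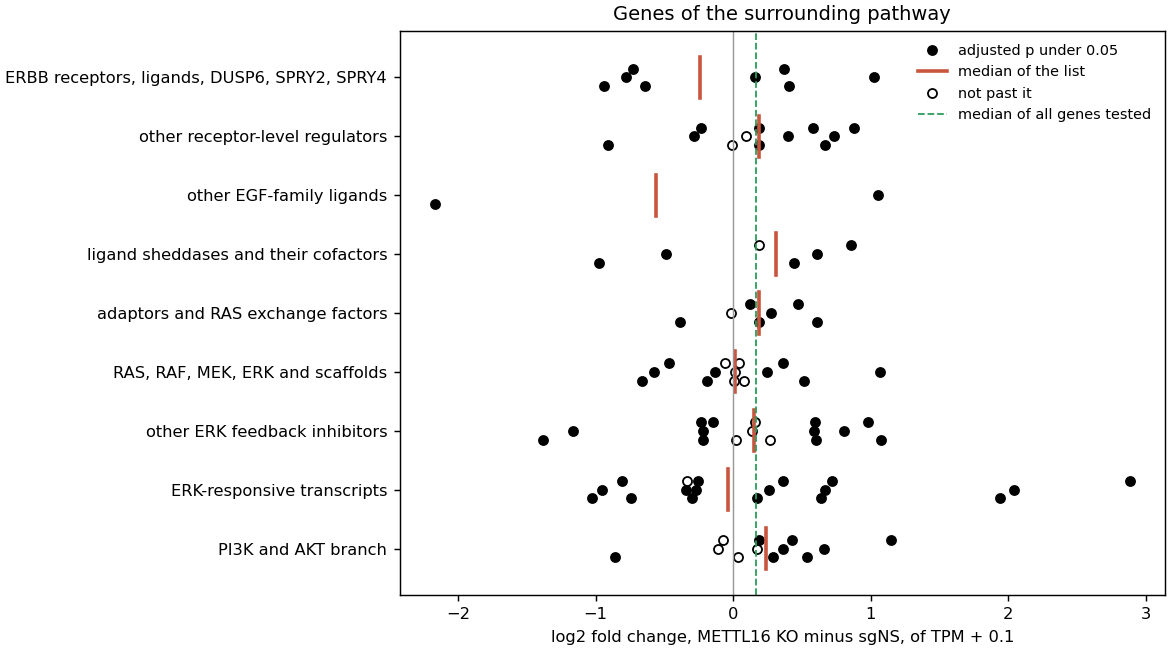
Log2 fold change (METTL16 KO minus sgNS, of TPM + 0.1) of each gene tested, by list; filled points passed an adjusted p of 0.05 in limma, open points did not, red bars are the medians of the lists and the green line is the median of all genes tested, 0.16. Each list holds genes on both sides of 0, with EGF at the far left and LIF, PHLDA1 and PHLDA2 at the far right. The list drawn as other ERK feedback inhibitors also holds inhibitors that ERK does not induce.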

How the data were processed

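RNA-seq of 2 sgNS and 2 METTL16 KO libraries of Huh7 cells was used. The authors trimmed with Cutadapt, used STAR for mapping to GRCh38 and took gene values from RSEM; versions and annotation are not given in the sources used here. The deposited values were treated as TPM, since each column sums to 1000000, although the methods call them RPKM. Columns were matched to samples by name.

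Genes with a mean of at least 1 TPM were tested on log2(TPM + 0.1) by limma 3.58.1 (R 4.3.3, eBayes with trend), with Benjamini-Hochberg adjustment over 11971 genes. Fold changes on that scale are understated for low genes. The genes and lists were chosen with earlier results of these data known. Named were the 10 genes, METTL16, and in each list up to 3 rises and 3 falls past an adjusted p of 0.05 whose groups do not overlap. The alternatives were 2 pseudocounts, 2 filters, median-ratio and quantile scaling, a replicate block, 2 variance models and each library left out. Positions are from GENCODE 44 and promoters from RefSeq, with entries for 9 of 10 genes; both are on GRCh38. Figures were drawn with matplotlib 3.10.9.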

Additional observations from a re-analysis of the deposited data

How the results depend on the processing

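EGFR, ERBB2, ERBB3, DUSP6, SPRY2 and METTL16 kept their direction and an adjusted p under 0.05 in limma or the unmoderated model under all 13 alternatives. SPRY4 reversed, to -0.0088 with median-ratio scaling (adjusted p = 0.895) and to -0.021 with quantile normalization. Without 1 library it ranged from 0.14 to 0.18, and it no longer passed without sgNS replicate 2 or either METTL16 KO library. AREG missed the threshold with median-ratio scaling (0.20) and quantile normalization (0.17). Over its alternatives the adjusted p in limma ran from 8.1e-04 with the replicate block to 0.11 with quantile normalization. HBEGF missed it with median-ratio scaling (0.24), quantile normalization (0.20), all genes above 0 (0.41) and the unmoderated model (0.41). Without 1 library HBEGF ranged from 0.28 to 0.53, missing it without replicate 2 of either group. Over its alternatives the adjusted p of HBEGF in limma ran from 0.0032 with the replicate block to 0.17 with quantile normalization. HBEGF was below the minimum mean of 5 TPM, so that this setting gave no value.

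The count of higher genes, 4, became 1 under either scaling (median-ratio or quantile), and 2 to 4 without 1 library. For the 2-fold rule, both scalings gave 1 lower gene (ERBB2) and 0 higher genes, against 0 and 1, where median-ratio scaling called 655 genes lower and 670 higher among all 11971 and quantile normalization 692 and 582, and leaving out a library gave 0 to 1 lower genes. EREG and TGFA, which were not tested, depended on the pseudocount: log2 differences of 1.21 and 0.94 became 0.29 and 0.19 with a pseudocount of 1, and 2.01 and 1.72 with 0.01. The smaller values follow from the larger pseudocount itself, and other causes were not tested.

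The groups share replicate numbers, but the deviations of same-numbered libraries had a correlation of -0.044 across genes. With the replicate block, the counts were again 4 lower and 4 higher genes and no call changed. Among all 11971 genes, 3112 were lower and 6048 higher in that fit. With 4 libraries the block leaves little from which to estimate spread, and the adjusted p of EGFR in limma reached 7.7e-90. The agreement is therefore a weak check. A fit that leaves a group with 1 library assumes that it varies like the other group.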

Other observations

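The surroundings of the genes differed. The window of 1000 kb on either side was chosen after values had been seen, and the values are given without a test. All 10 genes tested around AREG on chromosome 4 were called higher in METTL16 KO, with a median log2 fold change of 2.73 and a lowest value of 0.53, while 50.1% of all genes were higher. They include AFP and the chemokine genes CXCL1, CXCL2, CXCL3, CXCL5, CXCL6 and CXCL8, and EREG lies in the same stretch, so that AREG, with 0.37, had the smallest log2 fold change there among the tested genes of its window.

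DUSP6 was the opposite case. All 5 genes tested within its window on chromosome 12 were higher, with log2 fold changes from 0.38 to 1.85, whereas DUSP6 fell by 0.73. These 5 include POC1B, GALNT4 and the joint entry POC1B-GALNT4, which are not separate neighbours. Around EGFR on chromosome 7, 6 of 9 genes were higher and 1 lower, with a median of 0.26 and a highest value of 0.61, below the 1.02 of EGFR. Around ERBB2 on chromosome 17, 10 of 34 genes were lower and 10 higher, with a median of 0.01. The 46 genes around ERBB3 had a median of -0.12, with 22 lower and 13 higher. Around HBEGF 14 of 38 genes were lower and 12 higher, and around SPRY4 9 of 21 were lower and 7 higher. Around TGFA 5 of 20 were lower and 12 higher, and around SPRY2 both genes tested were higher. Of all genes tested, 25.6% were lower and 50.1% higher, and nothing particular to a window is read from its counts.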
